A study of Mus musculus with 3 samples.

Results

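The interferon-induced transmembrane (IFITM) genes Ifitm1, Ifitm2, Ifitm3 and Ifitm6 were described across the white blood cells of mice, as 4 of the 31053 genes in the deposited count matrix. They were chosen by gene symbol, and all 4 were found. The cells were blood leukocytes of C57/BL6J mice, taken after lysis of red cells and measured with a droplet 3′ single-cell RNA kit. Per the labels there were 3 groups, namely 24 h of sleep deprivation (SD24h), 48 h of sleep deprivation (SD48h) and a control group at 0 h (Con). Each group was 1 library made from the pooled leukocytes of 3 mice, with about 7000 cells planned. Strain and tissue were shared by all groups, and neither the age of the mice nor the means of keeping them awake is given in the sources used here. A sleep restriction condition that the design text also names was not analysed here.

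Each cell barcode ends in 1 of 3 numbers, called library 1, 2 and 3 here, but the labels do not say which group a number stands for. No library is therefore called control or sleep-deprived, groups are not compared and the numbers are not read as times. With 1 library a group there is also no spread between replicates, so no p-value is given. Values are given per library with exact 95% intervals, which are Poisson intervals for levels, Clopper-Pearson intervals for shares of cells and conditional intervals for ratios. All of them cover counting error only. After filtering, 7000, 5793 and 5539 cells were kept in libraries 1, 2 and 3, and the full libraries held 40807434, 30114546 and 36523283 UMIs (unique molecular identifiers, each standing for 1 captured RNA molecule). Of the barcode sequences, 61 occurred in more than 1 library.

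Cells were clustered without the Ifitm genes and named from marker genes. The classes are neutrophil-like (565, 3253 and 1977 cells in libraries 1, 2 and 3), monocyte-like (420, 424 and 496), B-like (4265, 1403 and 1995), T-like (1226, 520 and 801) and NK-like (307, 82 and 156). The neutrophil-like cells of library 1 stood apart. Of those 565 cells, 557 lay in a cluster led by Jaml and Cd300lb that held only 125 cells of library 2 and 66 of library 3. Most neutrophil-like cells of library 2 (2824) lay in a cluster led by Il1b and Fgl2, and most of library 3 (1391) in a cluster led by Ngp and Prok2. The median neutrophil-like cell had 2773, 3219 and 5123 UMIs in libraries 1, 2 and 3. Summed UMIs of a class were divided by all UMIs of that class and library and scaled to 1000000 (CPM). The kit counts 1 tag per molecule, so these levels are not divided by transcript length.

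IFITM proteins are small membrane proteins that restrict the entry of enveloped viruses at the cell surface and in endosomes, where they hinder the fusion of the viral with the cellular membrane. Ifitm3 is best known for limiting influenza virus, and it acts mainly in late endosomes and lysosomes. Ifitm1 and Ifitm2 are close relatives of it, with Ifitm1 found more at the cell surface, and Ifitm6 is a rodent member of the family. Type I and type II interferons induce several of the genes through response elements near their start sites. Myeloid cells also express them without an infection.

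All 4 genes lie on chromosome 7 (GRCm38), within 63088 bases that hold no other protein-coding gene wholly inside the span. Ifitm2 (ENSMUSG00000060591) spans chr7:140954837-140955987 on the minus strand, and Ifitm1 (ENSMUSG00000025491) spans chr7:140967221-140969825 on the plus strand. Ifitm3 (ENSMUSG00000025492) spans chr7:141009586-141010770, and Ifitm6 (ENSMUSG00000059108) spans chr7:141015699-141017924, both on the minus strand. The longest open reading frames of Ifitm1, Ifitm2 and Ifitm3 were 81.3% to 82.6% identical, and that of Ifitm6 was 64.9% to 68.8% identical to the other three. A 3′ kit reads the transcript ends, so the last 400 bases were compared, where identity was 58.8% to 77.5%. No stretch of 50 bases within those ends was shared by any pair of the genes. Over the whole transcripts Ifitm3 shared 15 such stretches with Ifitm1 and 20 with Ifitm2. A read lying wholly inside such a stretch could not be told apart, and whether reads were longer was not checked. A predicted gene, Gm45717, overlaps Ifitm2 on the same strand, and it held 0 UMIs in each library.

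The stretch around each start site is shown because interferon is known to act on several of these genes through such sequences. The sequences are RefSeq promoters (GRCm38.p6), printed 5′ to 3′ on the gene's strand, with position 1 at the RefSeq start. Capitals mark GAAANNGAAA, the core of an interferon response element. The first 4 lines run from position -130 to -31, and the last runs from 1 to 30.
Ifitm1 upstream: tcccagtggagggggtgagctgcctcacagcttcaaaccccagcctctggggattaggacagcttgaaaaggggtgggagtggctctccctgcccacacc
Ifitm2 upstream: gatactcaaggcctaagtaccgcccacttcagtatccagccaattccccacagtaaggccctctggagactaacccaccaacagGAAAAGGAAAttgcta
Ifitm3 upstream: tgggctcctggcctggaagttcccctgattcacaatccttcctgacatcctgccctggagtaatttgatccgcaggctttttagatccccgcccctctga
Ifitm6 upstream: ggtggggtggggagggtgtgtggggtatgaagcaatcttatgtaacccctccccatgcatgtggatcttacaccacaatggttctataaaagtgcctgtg
Ifitm3 start: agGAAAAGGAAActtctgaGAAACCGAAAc

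The upstream stretches lie at chr7:140967946-140968045 (Ifitm1), chr7:140955992-140956091 (Ifitm2), chr7:141010775-141010874 (Ifitm3) and chr7:141016923-141017022 (Ifitm6), and the stretch at the Ifitm3 start lies at chr7:141010715-141010744. Upstream refers to the RefSeq start used. The Ifitm1 and Ifitm6 stretches lie inside the gene spans given above, and 18 bases of the Ifitm1 stretch are exonic in the GENCODE annotation. The core was searched on both strands over 300 bases around each start, 250 of them upstream. Ifitm2 held 1 match, beginning at position -46, and Ifitm3 held 2, beginning at positions 3 and 20. Ifitm1 and Ifitm6 held none in this window. Over all 32851 RefSeq promoters 3.44% held a match. These matches describe letters in a window and are not measured binding sites.

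The family was a myeloid one in this blood. Ifitm1 and Ifitm2 were highest in neutrophil-like cells of every library, and Ifitm3 was highest in monocyte-like cells of every library. Ifitm6 was highest in monocyte-like cells of library 1, but in neutrophil-like cells of libraries 2 and 3. So 3 of the 4 genes had 1 leading class in all 3 libraries, where the interval of the ratio to the next class lay above 1 each time. The same held for 20.7% of 13209 genes measured, with 5.5% of all genes led by neutrophil-like cells and 5.86% by monocyte-like cells. Without library 1 the count was 4 of 4, but the share of all genes under this looser rule was not counted. In B-, T- and NK-like cells each gene had at most 51.2 CPM, in any library.

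**Figure D1:**
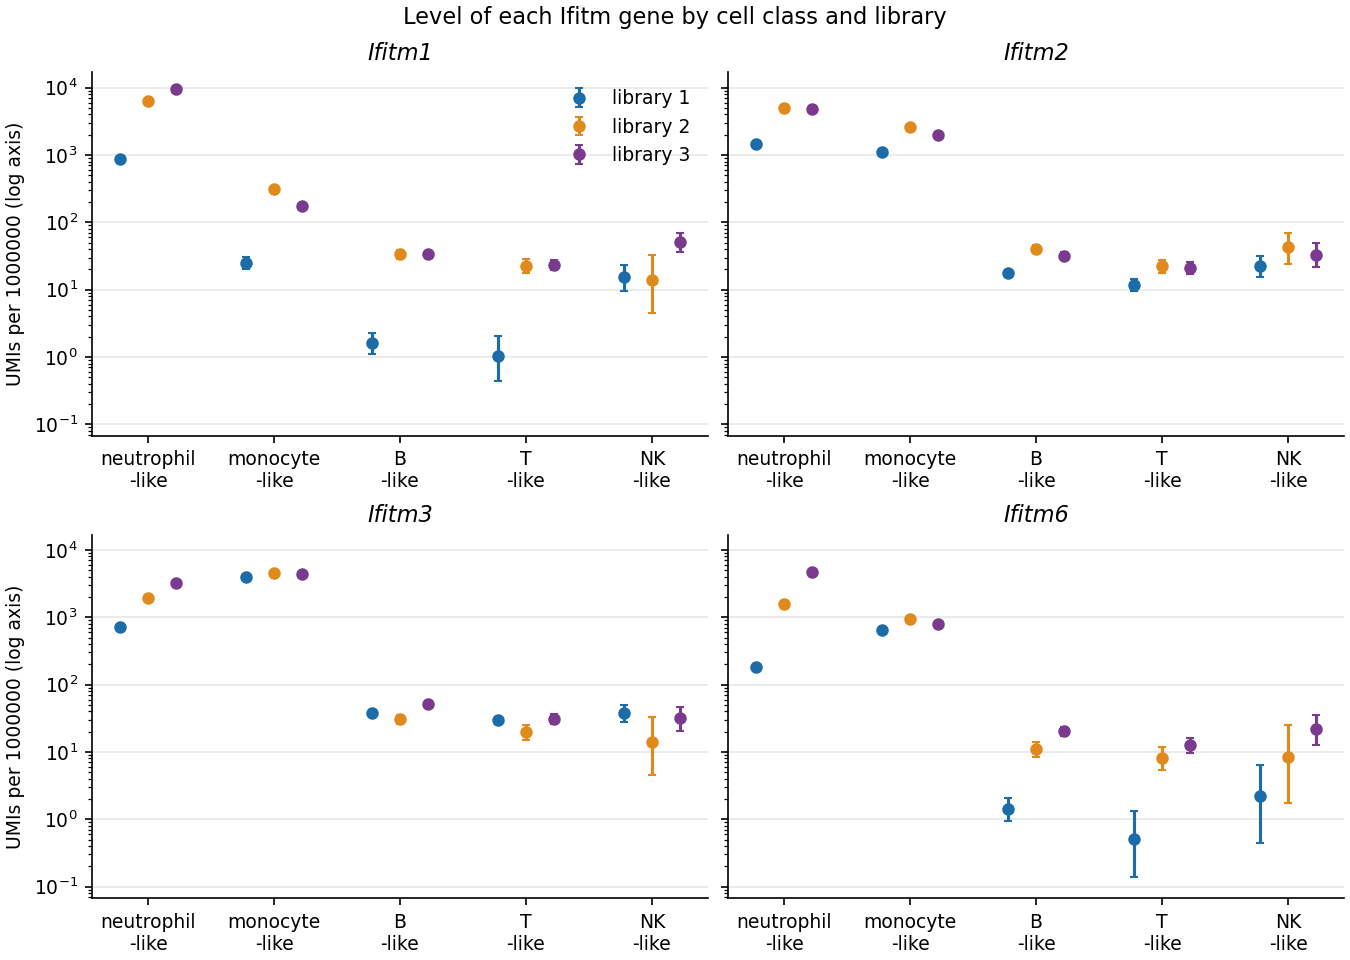
Level of each gene in CPM, relative to all UMIs of the class and library, on a log axis, for 5 cell classes and the 3 libraries, with exact 95% Poisson intervals as bars (hidden by the point where they are narrow). Ifitm1 spans from 1.03 CPM in T-like cells of library 1 to 9566 CPM in neutrophil-like cells of library 3, while Ifitm3 in monocyte-like cells stays between 3941 and 4609.8 CPM.

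Ifitm1, the member known for its place at the cell surface, was the most neutrophil-restricted. In neutrophil-like cells its level was 880.3 CPM (837 to 926) in library 1, 6263 CPM (6217 to 6308) in library 2 and 9566 CPM (9508 to 9624) in library 3. In monocyte-like cells its level was 25.1, 312 and 176 CPM. The neutrophil-like level was thus 35.0-fold (28.5 to 43.5), 20.05-fold (19.03 to 21.1) and 54.3-fold (51.0 to 57.8) that of monocyte-like cells. Neutrophil-like cells carried 87.2%, 97.0% and 98.2% of the gene's UMIs, although they were 8.07%, 56.2% and 35.7% of cells. Ifitm1 was uneven among neutrophil-like cells. In library 2 the cell at the 10th percentile had 2.50 UMIs per 10000, the median cell 47.8 and the cell at the 90th percentile 152.6.

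The low Ifitm1 level of monocyte-like cells was highest in library 2, where the neutrophil marker genes in those cells summed highest too. S100a8 and S100a9, the calprotectin subunits that dominate neutrophil RNA, summed in monocyte-like cells to 2939 CPM in library 1, 14056 CPM in library 2 and 4221 CPM in library 3. For each 100 UMIs of this pair there were 0.855, 2.22 and 4.17 UMIs of Ifitm1 in monocyte-like cells, against 0.755, 2.38 and 3.07 in neutrophil-like cells. The summed level of all 16 neutrophil markers, which include this pair, was 4000.2, 17101 and 6201 CPM in monocyte-like cells. In library 1 a single monocyte-like cell gave 30.2% of the 96 Ifitm1 UMIs of its class. How much of the monocyte-like signal came from neutrophil RNA was not tested.

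Ifitm2, a member that works largely inside the endosomal system, was shared by both myeloid classes. Neutrophil-like and monocyte-like cells had 1467 against 1101 CPM in library 1, 4962 against 2563 CPM in library 2, and 4758 against 1951 CPM in library 3. The ratio between the classes was modest, at 1.33 (1.27 to 1.40), 1.94 (1.90 to 1.97) and 2.44 (2.39 to 2.49). A UMI of the gene was found in 87.8% to 98.6% of neutrophil-like and 98.4% to 99.3% of monocyte-like cells. With each cell thinned to 1000 UMIs the shares in neutrophil-like cells were 70.4%, 96.3% and 96.0% in libraries 1, 2 and 3, against 63.6%, 88.4% and 81.5% in monocyte-like cells. Neutrophil-like cells held 34.3%, 81.7% and 81.2% of the Ifitm2 UMIs of libraries 1, 2 and 3, against 56.9%, 16.97% and 17.3% in monocyte-like cells. In library 1 the lower level thus went with the larger share, in cells with a median of 8691 UMIs, against 2773 in neutrophil-like cells.

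Ifitm3, the member best known for restricting influenza virus, had its highest CPM in monocyte-like cells and was the most even across libraries there. In monocyte-like cells it had 3941 CPM (3879 to 4005), 4609.8 CPM (4548 to 4672) and 4351 CPM (4297 to 4406) in libraries 1, 2 and 3. Neutrophil-like cells had 721, 1927 and 3253 CPM. The monocyte-like level was 5.47-fold (5.16 to 5.80), 2.39-fold (2.35 to 2.44) and 1.34-fold (1.32 to 1.36) the neutrophil-like level. Between libraries the monocyte-like level varied by 1.17-fold and the neutrophil-like level by 4.51-fold. Neutrophil-like cells held 7.02%, 49.8% and 57.5% of the Ifitm3 UMIs of libraries 1, 2 and 3, against 84.8%, 47.9% and 39.9% in monocyte-like cells. In library 3 the direction hung on the scaling. It turned to -0.81 on the log2 scale under trimmed mean of M-values (TMM) scaling and to -0.11 with S100a8 and S100a9 left out of the totals, so that under both scalings Ifitm3 had no single leading class.

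Ifitm6, the rodent member, differed most of the 4 between libraries in neutrophil-like cells. In neutrophil-like cells there were 184 CPM (164 to 205) in library 1, 1571 CPM (1549 to 1594) in library 2 and 4759.9 CPM (4719 to 4801) in library 3. Monocyte-like cells kept to a narrower range, with 645, 934 and 789 CPM. In library 1 the monocyte-like level was thus 3.51-fold (3.12 to 3.96) the neutrophil-like level. In library 2 the neutrophil-like level was 1.68-fold (1.63 to 1.74), and in library 3 6.04-fold (5.86 to 6.22), the monocyte-like level. Neutrophil-like cells gave 11.1%, 79.7% and 91.4% of the gene's UMIs.

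All 4 genes were lowest in neutrophil-like cells of library 1. Their highest library was 3 for Ifitm1 (10.9-fold the lowest, 10.3 to 11.4), Ifitm3 (4.51-fold, 4.27 to 4.78) and Ifitm6 (25.9-fold, 23.2 to 28.99), and 2 for Ifitm2 (3.38-fold, 3.25 to 3.52). All 4 of 4 were at least 2-fold apart between libraries, but so were 47.8% of the 9399 genes measured in this class, so the count alone says little about the family. Their direction was less common, since 4.47% of genes were at least 2-fold apart with library 1 lowest, while 41% were with library 1 highest. Under TMM scaling 16.7% of genes, and with S100a8 and S100a9 left out of the totals 6.93%, were 2-fold apart with library 1 lowest. The 4 Ifitm genes were so under both, with library 3 highest for Ifitm2 too. Without library 1, only Ifitm6 was 2-fold apart in neutrophil-like cells, beside 8.71% of all genes. That class also differed in other ways in library 1, where the 12 immature neutrophil markers summed to 1822.5 CPM, against 9491 and 14523 CPM in libraries 2 and 3. Most of each sum came from Lcn2 (892, 5927 and 7895 CPM) and Mmp8 (523, 2045 and 2849 CPM). Both are also among the 16 neutrophil markers, as is Ly6g, so the sums of the 2 lists overlap. All 16 neutrophil markers summed to 135833, 300637 and 366963 CPM in libraries 1, 2 and 3, the 12 B cell markers to 803, 89.3 and 54.7 CPM and the 8 platelet markers to 8431, 2698 and 2452 CPM. The part of these in the result was not tested.

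In monocyte-like cells Ifitm2, Ifitm3 and Ifitm6 moved less than in neutrophil-like cells, but Ifitm1 did not. Ifitm1 was 12.4-fold (10.1 to 15.5) and Ifitm2 2.33-fold (2.25 to 2.41) higher in library 2 than in library 1. Ifitm3 and Ifitm6 differed by 1.17-fold and 1.45-fold at most. So 2 of 4 were 2-fold apart, beside 13.5% of 10435 genes measured, and 4.12% of genes were so with library 1 lowest. Without library 1 the count was 0, and without library 2 it was 1, but the share of all genes was not counted for either. Neutrophil markers, given above, were also higher in monocyte-like cells of library 2, and their part in the Ifitm1 and Ifitm2 values was not tested.

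The difference between libraries was also seen within the cluster that held most of library 1. In the Jaml and Cd300lb cluster, Ifitm1 had 857, 4967 and 7786 CPM in libraries 1, 2 and 3, and Ifitm6 had 173, 1028 and 4869.6 CPM. Within it Ifitm1 was 9.08-fold (8.22 to 10.0), Ifitm2 2.44-fold (2.14 to 2.78), Ifitm3 3.90-fold (3.33 to 4.54) and Ifitm6 28.1-fold (24.0 to 33.0) higher in library 3 than in library 1. All 4 genes were thus past 2-fold there, beside 15.7% of 6080 genes, and 4.42% with library 1 lowest. The cells of this cluster were not alike in depth, since 547 of 557 reached 1000 UMIs in library 1, but only 53 of 125 in library 2 and 23 of 66 in library 3.

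The other neutrophil-like clusters differed in Ifitm6 and, less widely, in Ifitm1. The Ngp and Prok2 cluster met 7 of 12 markers of younger neutrophils and the Il1b and Fgl2 cluster 5 of 12, so that list separated them little. Ifitm6 had 3156 and 5431 CPM in the Ngp and Prok2 cluster of libraries 2 and 3, against 1353 and 1414 CPM in the Il1b and Fgl2 cluster. Ifitm1 leaned the other way, with 4891 and 9053 CPM in the Ngp and Prok2 cluster, against 6486 and 12189 CPM in the Il1b and Fgl2 cluster. Ifitm2 was nearly level, with 4369.7 and 4718 CPM against 5079 and 5003 CPM. Since the clusters were drawn from the same cells, these values are a description without a test. Within each cluster Ifitm1 was again higher in library 3 than in library 2, by 1.88-fold (1.85 to 1.91) in the Il1b and Fgl2 cluster and by 1.85-fold (1.81 to 1.90) in the Ngp and Prok2 cluster, while Ifitm2 differed by 1.08-fold at most. Ifitm6 was 1.72-fold (1.67 to 1.77) higher in library 3 in the Ngp and Prok2 cluster, but 1.05-fold (1.002 to 1.09) in the Il1b and Fgl2 cluster. In library 3 the Jaml and Cd300lb cluster, at 4869.6 CPM of Ifitm6, was near the Ngp and Prok2 cluster.

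**Figure D2:**
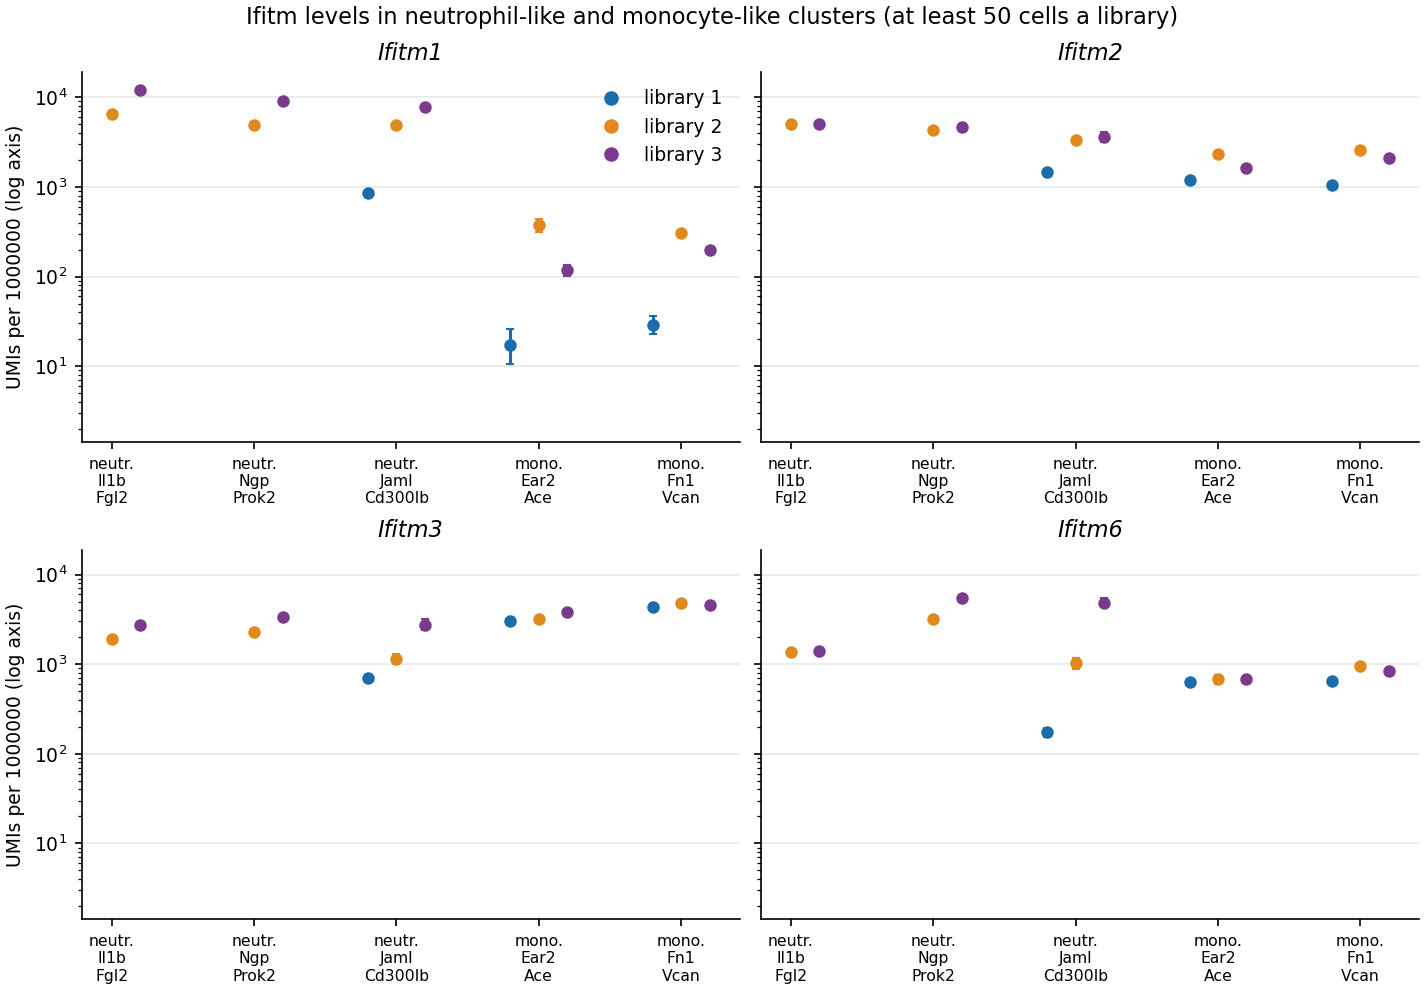
Level of each gene in CPM (log axis) in 3 neutrophil-like and 2 monocyte-like clusters, named by leading genes, for libraries with at least 50 cells in the cluster, with exact 95% Poisson intervals. Library 1 is lowest wherever it is shown, and Ifitm6 is highest in the Ngp and Prok2 cluster, at 3156 and 5431 CPM in libraries 2 and 3.

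Monocyte-like cells fell into a classical cluster led by Fn1, Vcan and Ccr2 and a non-classical one led by Ear2, Ace and Cd300e. Classical monocytes are recruited to inflamed tissue, and non-classical ones patrol the vessel wall. Ifitm3 had 4376, 4756 and 4552 CPM in the classical cluster of libraries 1, 2 and 3, and 3031, 3194 and 3838 CPM in the non-classical one. It was thus the leading member in both. Ifitm6 had 654, 961 and 829 CPM in the classical cluster and 627, 676 and 685 CPM in the non-classical one. Ifitm2 had 1060.3, 2590.0 and 2077 CPM in the classical cluster and 1188, 2299.9 and 1627 CPM in the non-classical one.

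The mix of the family differed between the myeloid classes. In monocyte-like cells Ifitm3 made up 69.0%, 54.8% and 59.9% of the summed UMIs of the 4 genes in libraries 1, 2 and 3, and Ifitm1 only 0.440%, 3.71% and 2.42%. In neutrophil-like cells Ifitm2 led in library 1 with 45.1% (43.8 to 46.4), ahead of Ifitm1 with 27.1%. In libraries 2 and 3 Ifitm1 led there, with 42.5% and 42.8%. The share of Ifitm6 in neutrophil-like cells was 5.66%, 10.7% and 21.3%, and that of Ifitm3 22.2%, 13.1% and 14.6%. With every cell thinned to 1000 UMIs the leading gene was the same in both myeloid classes of every library, and the Ifitm6 share in neutrophil-like cells of library 3 was 17.5%.

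**Figure D3:**
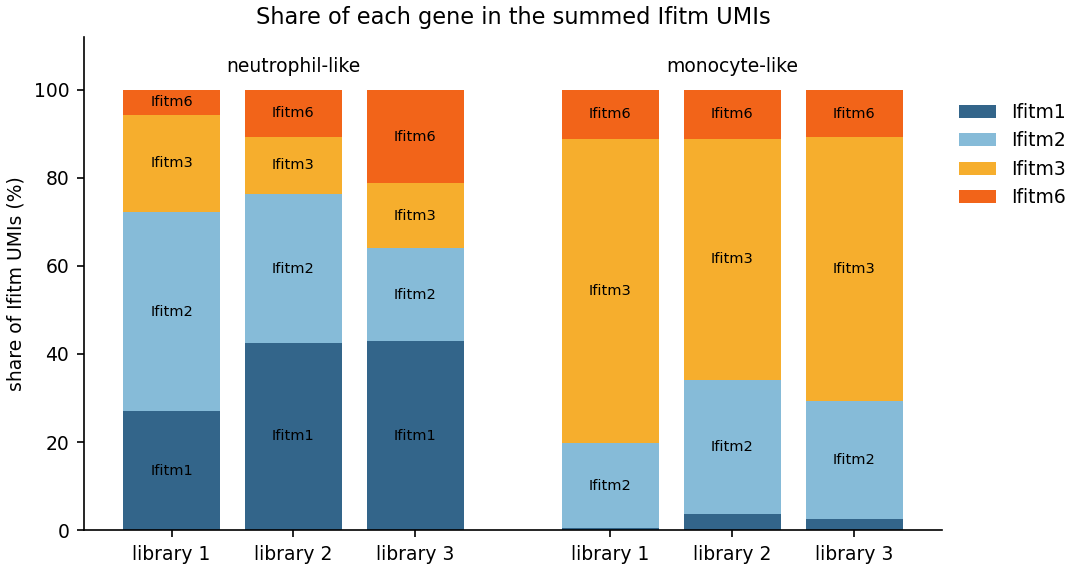
Share (%) of each gene in the summed UMIs of the 4 genes, as stacked bars that add up to 100, for neutrophil-like and monocyte-like cells of each library. Ifitm3 takes 54.8% to 69.0% in monocyte-like cells, while Ifitm1 and Ifitm2 together fill most of the bar in neutrophil-like cells.

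Single neutrophil-like cells of libraries 2 and 3 often carried the whole family. At a common depth of 1000 UMIs a cell, all 4 genes were detected together in 2.53%, 33.8% and 64.4% of neutrophil-like cells of libraries 1, 2 and 3. In monocyte-like cells the share was 0.714%, 6.15% and 5.28%, where Ifitm1 was the gene most often missing. No Ifitm UMI was found in 11.6%, 0.160% and 0.0522% of neutrophil-like cells, against 93.6%, 90.1% and 87.6% of B-like cells. Thinning left out 11, 129 and 60 neutrophil-like cells that held fewer UMIs. Unthinned, Ifitm6 was detected in 32.0%, 75.3% and 92.4% of neutrophil-like cells, and at the common depth in 14.1%, 55.1% and 80.6%. Detection of one gene told little of another. Ifitm1 and Ifitm6 met in 73.2% of neutrophil-like cells of library 3, where the product of their shares was 74.1%, and Spearman's rho over those 1917 thinned cells was -0.19. Over all pairs, libraries and the 2 myeloid classes rho lay between -0.19 and 0.19, so every rank relation was weak, and none was tested.

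**Figure D4:**
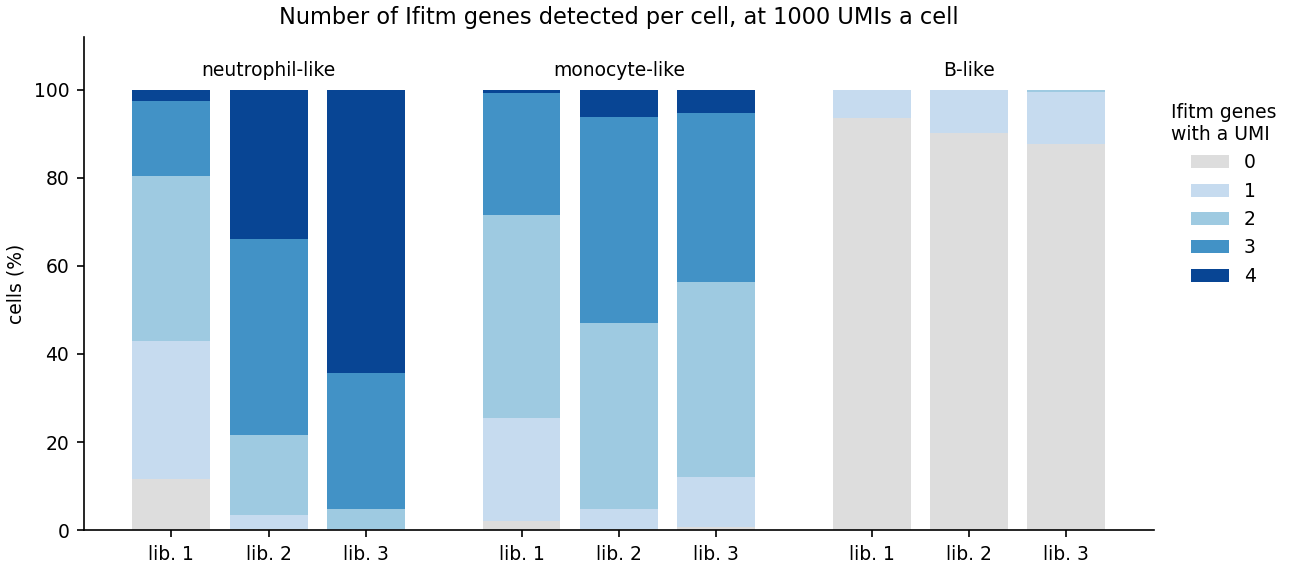
Share of cells (%) with a UMI of 0, 1, 2, 3 or 4 of the Ifitm genes, as stacked bars, after thinning each cell to 1000 UMIs, for 3 classes and the 3 libraries. The darkest part, all 4 genes, reaches 2.53%, 33.8% and 64.4% in neutrophil-like cells and is at 0 in B-like cells.

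Lymphocytes held little of the family. In B-like cells Ifitm3 had 38.4, 30.4 and 51.2 CPM in libraries 1, 2 and 3, Ifitm2 had 17.8, 40.8 and 32.0 CPM, Ifitm1 had 1.62, 33.4 and 33.7 CPM, and Ifitm6 had 1.41, 11.1 and 20.2 CPM. Ifitm1 and Ifitm6 were higher in libraries 2 and 3, where S100a8 and S100a9, which B cells do not express, were also higher in B-like cells, at 1042 and 834 CPM against 61.7 CPM in library 1. Ifitm1 came to 2.62, 3.21 and 4.04 UMIs per 100 of that pair in B-like cells, against 0.755, 2.38 and 3.07 in neutrophil-like cells. The median B-like cell had 3951, 3791 and 3598 UMIs, and the part of neutrophil RNA in the B-like Ifitm1 level was not tested. Ifitm6 came to 2.29, 1.06 and 2.42 per 100 in B-like cells, against 0.158, 0.597 and 1.53 in neutrophil-like cells. For Ifitm2 the figures were 28.8, 3.92 and 3.84 against 1.26, 1.89 and 1.53. None of the genes kept the neutrophil-like ratio in library 1. Ifitm3 lay furthest from it, with 62.3, 2.92 and 6.14 UMIs per 100 of the pair in B-like cells, against 0.618, 0.732 and 1.04 in neutrophil-like cells. The Ifitm3 figures for monocyte-like cells were 134, 32.8 and 103.1 per 100, and the part of monocyte RNA in the B-like Ifitm3 level was not tested.

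A small B-like cluster led by Ifit3 and Usp18, 2 interferon-stimulated genes, had more Ifitm3 than B-like cells as a whole, with an interval clear of the B-like level in libraries 1 and 3 but not in library 2. The larger B-like cluster led by Fcer2a and Cr2 was also above the B-like level, at 52.1 CPM (47.2 to 57.2), 52.1 CPM (38.4 to 69.1) and 83.9 CPM (69.7 to 100.2) in libraries 1, 2 and 3. The cluster led by Ifit3 and Usp18 held 88, 71 and 146 cells and had 76.4 CPM (51.5 to 109), 46.3 CPM (25.3 to 77.7) and 133 CPM (107 to 165) of Ifitm3 in libraries 1, 2 and 3. Ifitm2 had 10.2, 26.5 and 37.7 CPM there. In NK-like cells, Ifitm1 reached 15.3 CPM in library 1, but all 21 UMIs came from 1 cell. A small unnamed cluster led by Cd209a, Ikzf2 and Clec10a held 43, 28 and 25 cells and had 949.6, 2383 and 3341 CPM of Ifitm3. A further 19 and 13 cells of libraries 2 and 3, grouped with erythroid markers but also carrying neutrophil markers, had 2807 and 4627 CPM of Ifitm1, and they entered none of the class values above.

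The genes whose pattern was most like each member were sought over 15 points, the 5 classes in each of 3 libraries, among 6309 genes, by Pearson's r of log2(CPM + 1). For Ifitm1 these were Retnlg (r = 0.988), a resistin-like gene, S100a9 (0.974) and S100a8 (0.973), all 3 of them markers that had named the neutrophil class. For Ifitm2 they were Mcemp1 (0.993), a myeloid membrane protein gene, Gda (0.992), which encodes guanine deaminase, and Fpr2 (0.989), a formyl peptide receptor gene. These match its presence in both myeloid classes. For Ifitm3 they were Aph1c (0.992), a gamma-secretase subunit gene, Anxa3 (0.989), an annexin gene, and C3 (0.988), the central complement gene. For Ifitm6 they were Cd177 (0.972), a surface protein gene of neutrophils, Mmp8 (0.970), which encodes neutrophil collagenase and is also a class marker, and Wfdc17 (0.968). Between the members r was highest for Ifitm2 and Ifitm6, at 0.967, and lowest for Ifitm1 and Ifitm3, at 0.712. The points share libraries and the contrast of myeloid with lymphoid cells, so these coefficients are descriptions.

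Other interferon-stimulated genes did not follow the family as one. Of a list of 50, 26 had 1 leading class in all libraries, 13 of them monocyte-like and 10 neutrophil-like, beside 20.7% of all genes. In neutrophil-like cells 48 were measured and 21 were at least 2-fold apart between libraries, near the background of 47.8%. Library 1 was lowest for 11 and highest for 7, beside 4.47% and 41% of all genes. The median deviation of the list in library 1 from the mean of the 3 libraries was -0.03 on the log2 scale. That of all genes was 0.43. The split rested on the scaling. TMM scaling put the median of all genes in library 1 at -0.09 in place of 0.43. Under it 31 of the list were 2-fold apart, beside 32.9% of all genes. Library 1 was lowest for 25 and highest for 2, beside 16.7% and 13.1% of all genes. With S100a8 and S100a9 left out of the totals 24 of the list were 2-fold apart, beside 37.5% of all genes. Library 1 was lowest for 16 and highest for 4, beside 6.93% and 27.8% of all genes. Within the Jaml and Cd300lb cluster alone 9 of 41 measured were 2-fold apart, beside 15.7% of all genes. Without library 1 the count was 8 of 47, beside 8.71% of all genes, without library 2 it was 12 of 47, beside 41.7%, and without library 3 it was 12 of 48, beside 32.3%. In B-like cells 15 of 48 were 2-fold apart, beside 5.84% of all genes. Library 1 was lowest for 14 of them, beside 0.972% (library 2 highest) and 0.883% (library 3 highest) of all genes. In T-like cells 14 of 47 were 2-fold apart, beside 6.52% of all genes. Library 1 was lowest for 12 of them, beside 0.875% (library 2 highest) and 0.895% (library 3 highest). In NK-like cells 8 of 34 were 2-fold apart, beside 8.19%, with library 1 lowest for 1, beside 1.18% and 0.6%.

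The 5 genes of the list with the widest spread in neutrophil-like cells were named. Zbp1, a sensor of nucleic acids, had 17.9, 45.2 and 105 CPM in libraries 1, 2 and 3, and a ratio of highest to lowest of 5.83 (4.09 to 8.62). Ifi209, an interferon-inducible p200 family gene, ran the other way with 24.3, 4.26 and 5.25 CPM (5.70-fold, 3.68 to 8.79). Xaf1, which encodes a pro-apoptotic factor, had 7.52, 9.74 and 30.99 CPM. Gbp2, a guanylate-binding GTPase gene, had 26.6, 96.2 and 102 CPM, and Dhx58, an RNA helicase gene, had 5.78, 11.1 and 19.1 CPM. So 4 of these 5, picked for their wide spread, were lowest in library 1, as the Ifitm genes were, but at far lower levels. Among all genes 4.47% were 2-fold apart with library 1 lowest.

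In monocyte-like cells few genes of the list differed between libraries. There 8 of 49 measured genes were 2-fold apart, near the 13.5% of all genes. Of the 8, 7 were highest in library 1, where Ifitm1 and Ifitm2 were lowest, beside 7.33% of all genes. Ifit3b had 21.98, 4.54 and 2.62 CPM in libraries 1, 2 and 3, Ifit3 had 69.9, 14.1 and 14.9 CPM, and Rsad2, which encodes the antiviral enzyme viperin, had 55.5, 15.1 and 11.2 CPM. Ifit3 and Ifit3b are close copies, so how reads were divided between them is uncertain. These counts were the same under TMM scaling, beside 13.3% of all genes.

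Interferon receptors and signalling genes showed a mixed picture. In neutrophil-like cells 4 of 13 were 2-fold apart, fewer than the 47.8% of all genes. Socs3, a feedback inhibitor of cytokine signalling, had 153, 638 and 283 CPM in libraries 1, 2 and 3. Ifnar1, a chain of the type I interferon receptor, had 95.4, 67.1 and 42.6 CPM, and the kinase gene Jak1 had 481, 342 and 228 CPM. Both were highest in library 1, but under TMM scaling 8 of 13 were 2-fold apart, beside 32.9% of all genes. None of the 8 was highest in library 1, beside 13.1% of all genes. With S100a8 and S100a9 left out of the totals 3 were 2-fold apart, beside 37.5% of all genes. All 3 were lowest in library 1, beside 6.93% of all genes. In monocyte-like cells 3 of 13 were 2-fold apart, beside 13.5% of all genes, among them Socs3 with 34.0, 221 and 195 CPM.

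Among partners and modifiers of IFITM proteins the number of calls in neutrophil-like cells depended on the scaling, but that in monocyte-like cells did not. In neutrophil-like cells 7 of 10 were 2-fold apart, all 7 highest in library 1 and lowest in library 3, a pattern that 30.3% of all genes showed. The tetraspanin gene Cd9 had 3950, 1634 and 1298 CPM, and Cd81, which encodes a tetraspanin partner of IFITM proteins, had 278, 93.4 and 78.4 CPM. Zdhhc20, which encodes a palmitoyltransferase that modifies IFITM3, had 129.6, 72.5 and 48.6 CPM. Under TMM scaling 3 of 10 were 2-fold apart, near the 32.9% of all genes, and Cd9, Cd81 and Zdhhc20 were not among them. With S100a8 and S100a9 left out of the totals 6 of 10 were 2-fold apart, beside 37.5% of all genes. All 6 were highest in library 1, beside 27.8% of all genes. Monocyte-like cells had 5 of 10 that were 2-fold apart, beside 13.5% of all genes. All 5 were highest in library 1, beside 7.33% of all genes. Under TMM scaling these 2 counts were the same, beside 13.3% and 6.54% of all genes. The B cell and platelet markers given above for neutrophil-like cells were also highest in library 1. Cd9 is abundant in platelets and Cd81 in B cells, and the part of such RNA was not tested.

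**Figure D5:**
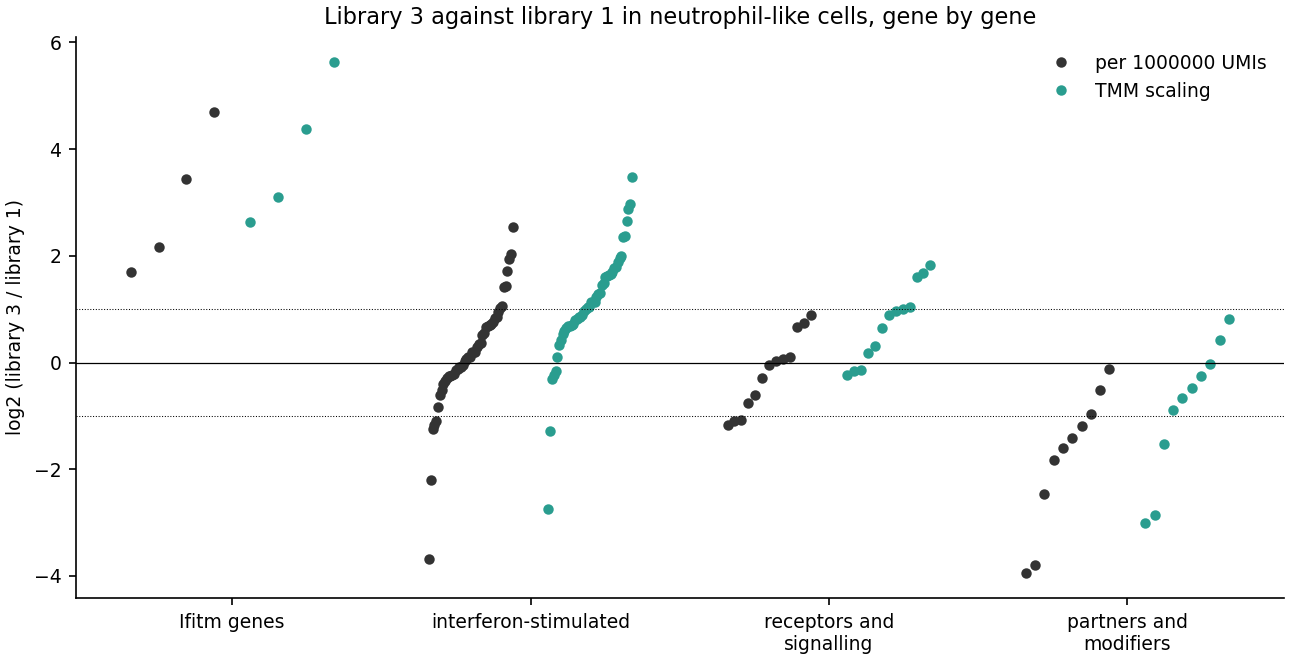
Log2 ratio of library 3 to library 1 in neutrophil-like cells for each measured gene of 4 lists, ordered by value within a list, with levels in CPM (black) or by TMM (green), and dotted lines at a 2-fold difference. The 4 Ifitm genes lie above the upper dotted line under both scalings, while the interferon-stimulated genes spread around 0 in black and lie mostly above 0 in green.

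The 3 other family genes were scarce in myeloid cells. Ifitm5, the bone member of the family, had 3, 59 and 29 UMIs in neutrophil-like cells of libraries 1, 2 and 3, and 0 in B-, T- and NK-like cells. Ifitm10 had 41 UMIs in all neutrophil-like cells. It was instead a gene of NK-like cells, with 117, 152 and 111 CPM in libraries 1, 2 and 3, and of T-like cells at 14.1, 15.9 and 8.93 CPM. Ifitm7 had 0 UMIs in all 5 classes.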

How the data were processed

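The deposited data were 1 matrix of UMI counts per gene and cell barcode, raw and not normalized, written by Cell Ranger 6.0.2 per the file headers. Per the submitters' processing notes the tools were Cell Ranger 4.0.0, Trimmomatic 0.39, R 4.0.2 and Seurat 3.0, with the build GRCm38. The rule that separated cells from empty droplets is not stated there.

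Of 22204 barcodes, 18885 passed a minimum of 200 genes and a mitochondrial share of no more than 10%, and 553 Scrublet doublets (expected rate 6%) were removed. Cells were clustered with scanpy 1.11.5 on 2000 variable genes without Ifitm, haemoglobin, mitochondrial, immunoglobulin, T cell receptor, Xist and Y-linked genes (30 components, 15 neighbours, Leiden resolution 1, no integration across libraries). Clusters were named by listed markers, by a rule set after the data were seen, so class shares depend on these names.

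UMIs were summed per class and library and given as CPM. No test across samples was possible with 1 library per group, and the libraries are tied to no group. A gene was called 2-fold apart when the highest library was at least 2-fold the lowest and the interval of the ratio lay above 1, among genes with at least 20 UMIs in the class. Shares of cells were also given after thinning to 1000 UMIs. TMM factors came from edgeR 4.0.16. The rule for 2-fold calls was also run on simulated counts with known fold changes. Those counts held counting error only, so the run cannot speak to differences between replicates or in cell mix. Similar genes were the 3 with the highest r per member, and interferon genes named were the 5 (neutrophil-like) and 3 (monocyte-like) with the widest spread and at least 50 UMIs. Members and gene lists were chosen with earlier results of these data known. Alternatives covered scaling, cell filter, doublets, clustering genes and resolution, weighting, background subtraction, the top cell, immature clusters, the UMI minimum and thinning. Leaving out a library and using 1 neutrophil-like cluster alone were added after seeing the data. One gene of the lists is counted but not reported here by name.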

Additional observations from a re-analysis of the deposited data

How the results depend on the processing

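No paired analysis was possible because each group was 1 library and the libraries are tied to no group. The ratio of monocyte-like to neutrophil-like Ifitm3 in library 3 turned to -0.81 (log2) under TMM scaling and to -0.11 with S100a8 and S100a9 left out of the totals. Of 208 log2 ratios under an alternative, 127 moved by less than their counting interval, 79 moved further with the same direction and the 2 above reversed. The causes were not tested here or below. The count of Ifitm genes 2-fold apart between libraries, 4 in neutrophil-like and 2 in monocyte-like cells, was the same under every scaling, cell filter and clustering tried. Alternatives chosen after seeing the data moved it. Without library 1 it was 1 in neutrophil-like and 0 in monocyte-like cells, and without library 2 it was 1 in monocyte-like cells. Among these, the share of all genes was counted only for the first, at 8.71%. The interferon list's count of 21 was 31 under TMM scaling, 9 of the 41 measured in the Jaml and Cd300lb cluster alone, 8 without library 1, 12 without library 2 and 12 without library 3. Thinning to 1000 UMIs moved all 36 shares of cells with a UMI and 15 of 24 family shares beyond their counting interval. All intervals cover counting error only.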
